A study of Mus musculus with 9 samples.

Results

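Keratins are the cytoplasmic intermediate filament proteins of epithelial cells, and 10 of them were followed here in sorted cells of mouse lung cancers. The members were the rows of the deposited table named Krt4, Krt5, Krt7, Krt8, Krt14, Krt15, Krt17, Krt18, Krt19 and Krt23. All 10 were present among the 23224 genes of the table, and 41 other keratin genes stood in the same table. All 10 passed the filter on low counts when all 9 libraries were used. The cells came from tumour-bearing lungs and gave 9 libraries in 3 genotype groups. KPS (3 libraries) carried Trp53fl/fl, Smarca4fl/fl and Rosa26LSL-TdTom. KPS-HET (2 libraries) carried the same alleles with Smarca4fl/+, and KP (4 libraries) with Smarca4+/+. The floxed Trp53 alleles, the reporter and the mixed B6;129S2 background were thus shared by all groups, so the groups differ by label only in having 2, 1 or 0 floxed Smarca4 alleles. Adenoviral Cre, driven by CCSP, a promoter of club cells, was instilled into the trachea, and mice were taken when moribund. The sources used here do not give age, sex or the sort gate. Nor do they tie each library to its own mouse, and p-values therefore measure only how far these libraries differ, which may be technical.

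A keratin filament is built from pairs of 1 type I and 1 type II keratin, so the members come as partners. Krt4, Krt5, Krt7 and Krt8 encode type II keratins, and Krt14, Krt15, Krt17, Krt18, Krt19 and Krt23 encode type I keratins. Keratins 8 and 18, with 7 and 19, are the filaments of simple, single-layered epithelium such as the lining of the airways and alveoli. Keratins 5 and 14, with 15, belong to basal cells of stratified epithelium, keratin 17 to stressed or wounded epithelium, and keratin 4, whose partner is keratin 13, to the upper layers of moist, non-cornified squamous epithelium such as that of the oesophagus. In lung adenocarcinoma keratin 7 is a routine diagnostic marker, while keratin 5 marks squamous carcinoma. Smarca4, the gene altered here, encodes BRG1, which powers BAF complexes that move nucleosomes.

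The genes of keratins 8 and 18, the partners whose balance is described further on, are neighbours on mouse chromosome 15 (RefSeq, GRCm38.p6), although Krt18 is a type I gene and the other type I members lie on chromosome 11. Their start regions are shown because the pair is expressed together and the sequences differ. Each runs from 250 bases before to 50 bases after the RefSeq start, Krt8 at chr15:102004293-102004592 on the minus strand and Krt18 at chr15:102027966-102028265 on the plus strand. This is another build than the authors' mm9. Capitals mark exact matches to a TATA box (letters TATAAA), a GC box (letters GGGCGG), an AP-1 site (letters TGANTCA) or a TEAD site (letters GGAATG). Each was searched on both strands, and whether a match is a working site was not tested.
Krt8: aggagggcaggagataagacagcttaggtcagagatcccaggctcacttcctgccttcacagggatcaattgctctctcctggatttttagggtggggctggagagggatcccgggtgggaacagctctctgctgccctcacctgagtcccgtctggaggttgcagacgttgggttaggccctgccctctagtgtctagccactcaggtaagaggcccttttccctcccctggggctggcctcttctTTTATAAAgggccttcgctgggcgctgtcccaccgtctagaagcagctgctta
Krt18: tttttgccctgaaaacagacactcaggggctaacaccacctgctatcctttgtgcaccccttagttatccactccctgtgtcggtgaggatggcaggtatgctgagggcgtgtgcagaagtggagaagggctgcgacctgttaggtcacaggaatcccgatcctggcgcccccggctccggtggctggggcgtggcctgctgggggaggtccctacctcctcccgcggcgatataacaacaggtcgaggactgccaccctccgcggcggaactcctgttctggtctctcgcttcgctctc
Krt8 held TATAAA on both strands in overlapping positions, with its first bases at -3 and -1 from the RefSeq start, and none of the other 3. The matched letters span that start, and whether they act as a TATA box was not tested. Krt18 held no exact match to any of the 4 within this window. Near matches, such as the letters tataac in the Krt18 sequence, were not counted. Of 32841 promoters of the same length, 13.6% held the letters of the TATA box, 35.7% of the GC box, 7.81% of the AP-1 site and 14.7% of the TEAD site. The table matched 6 of the 10 members (Krt5, Krt7, Krt8, Krt14, Krt18 and Krt23). Of these, Krt7 held 4 matches to the GC box, Krt14 held 1 to the TEAD site, and Krt5 and Krt23 held none of the 4 in these windows.

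The KPS libraries held 21368864 to 37114352 estimated counts, the KPS-HET libraries 12607471 and 22705446 and the KP libraries 15275259 to 29231565. Levels are CPM, counts scaled to library depth and by TMM between libraries, and a floor of 3 counts lay at 0.0826 to 0.226 CPM, which covers counting error only. Smarca4 averaged 47.7 ± 7.84 CPM in KPS (SD, n = 3), 86.8 ± 14.7 CPM in KPS-HET (n = 2) and 126 ± 12.0 CPM in KP (n = 4), with no overlap between groups. In edgeR it was called in KPS against KP (log2 fold change -1.40 ± 0.15, SE, adjusted p = 0.00214). It was not called in KPS-HET against KP (-0.53 ± 0.17, adjusted p = 0.974) or in KPS against KPS-HET (-0.86 ± 0.18, adjusted p = 0.0551). Of all genes, 13.4% and 36.4% did not overlap in those comparisons. Epcam, an adhesion molecule of epithelial cells, lay between 622 and 879 CPM in every library. The 6 pan-epithelial markers that include it summed to 2797 to 3352 CPM in KPS, 1886 and 2501 CPM in KPS-HET and 1899 to 2436 CPM in KP, with KPS above all others. Of the 6, 1 was called higher in KPS than in KP, Cdh1, which encodes E-cadherin, with 1535 ± 219 CPM in KPS (SD, n = 3) and 757 ± 127 CPM in KP (n = 4; log2 fold change 1.02 ± 0.17, adjusted p = 0.00854). Of 16 macrophage and monocyte markers in the table, 15 were tested, 13 had positive fold changes in KPS against KP and 3 were called. Their summed level was 1277 to 5712 CPM in KPS, highest in replicate 1, 836 to 2716 CPM in KPS-HET and 949 to 1827 CPM in KP. Summed fibroblast (8 genes) and endothelial (8 genes) markers reached 67.0 and 112 CPM in KPS replicate 3 and at most 17.3 and 45.2 CPM elsewhere. Of the 8 markers each, 8 endothelial and 7 fibroblast genes had positive fold changes, of which 2 and 1 were called, and Lum was at 0 in KPS. Beside these counts of called markers, 3.96% of all genes tested were called higher in KPS than in KP. The summed level of 8 alveolar type 2 markers was 22534 to 53912 CPM in KPS, 49669 to 78188 CPM in KPS-HET and 66654 to 107107 CPM in KP. What part any of these cells had in the keratin values was not tested. In bulk samples, fewer cells of a type and less RNA per cell cannot be told apart.

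The simple epithelial keratins made up nearly all of the members' reads in every library. Krt7, Krt8, Krt18 and Krt19 together held 96.4% to 98.2% of the members' counts in KPS, 97.8% to 97.9% in KPS-HET and 97.3% to 98.1% in KP. The 10 members held 0.643% to 0.747% of all counts in KPS, 0.582% to 0.723% in KPS-HET and 0.555% to 0.814% in KP, ranges that overlap. Per kilobase of the principal GENCODE M21 transcript, a scale on which genes can be set beside each other, Krt8 averaged 1374 CPM per kb, Krt18 1141, Krt19 751 and Krt7 379 in KPS. On this scale the order of the leading pair was turned in KP. Krt18 averaged 1306 ± 296 CPM per kb there and Krt8 1077 ± 224 (SD, n = 4). It was also turned in KPS-HET, with Krt18 at 1113 ± 140 and Krt8 at 935 ± 116 (n = 2). Both genes were read in the same libraries, so these SD do not measure the difference between them. Krt8 counts were above Krt18 counts in every library, so the turned order rests on the transcript lengths used (1958 and 1437 bases). The count ratios of this pair within each library are given further on. Krt19 (497) and Krt7 (393) followed in KP, and the level of Krt7 rests on an annotated transcript of 4094 bases, the longest of the members. Krt23 came next in all 3 groups, at 65.2 CPM per kb in KPS, 73.8 in KPS-HET and 92.2 in KP. Krt4 ranked 6 among all keratins in KPS at 44.3 ± 38.2 CPM per kb (SD, n = 3), 12 in KPS-HET at 2.93 ± 0.54 (n = 2) and 15 in KP at 1.14 ± 0.64 (n = 4).

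Keratin 4, a keratin of squamous epithelium, was the only member that passed the test, and it was higher in KPS. Krt4 stood at 8.59, 104 and 171 CPM in the KPS libraries, at 7.06 and 5.43 CPM in the KPS-HET libraries and at 1.70, 1.75, 4.48 and 1.82 CPM in the KP libraries. No library of 1 group overlapped with another, yet KPS replicate 1 lay far below the other KPS libraries and just above KPS-HET. The mean was 94.5 ± 81.5 CPM in KPS (SD, n = 3), against 2.44 ± 1.36 CPM in KP (n = 4). In the edgeR quasi-likelihood test Krt4 rose 38.8-fold in KPS against KP, a log2 fold change of 5.28 ± 0.85 (SE; adjusted p = 0.00916), higher in 3 of 3 libraries. The call held without any 1 library in edgeR, and without KPS replicate 3 the log2 fold change was 4.49 (adjusted p = 0.0221). With limma-voom it was 4.44 and missed the threshold (adjusted p = 0.224, the highest over 14 alternatives, of which DESeq2 gave the lowest, 1.219e-07). Krt4 took 0.114%, 1.56% and 2.25% of the members' counts in the KPS libraries, 0.125% and 0.0795% in the KPS-HET libraries and 0.0219% to 0.0792% in the KP libraries. KPS-HET lay above KP by 1.37 ± 0.88 on the log2 scale (adjusted p = 0.974) and KPS above KPS-HET by 3.91 ± 1.06 (adjusted p = 0.116), and neither passed. Without KPS replicate 1 the difference of KPS from KPS-HET was 4.42 and passed (adjusted p = 0.00855, where the alternatives ran from 0.00564 to 0.494). None of the 50-base stretches of the Krt4 transcript occurs in a transcript of another gene in GENCODE M21.

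Of the 10 members 1 was higher and none lower in KPS than in KP at an adjusted p below 0.05. Over all 15663 genes tested 3.96% were called higher and 3.28% lower (7.24% in all), and the members' count is the single gene Krt4. The median log2 fold change of the members was 0.15, against 0.01 over all genes, with 5 values above and 5 below 0. Krt5 and Krt15 were among the 5 above 0. With only the KPS-HET and KP libraries fitted, these genes failed the filter on low counts and 8 members were tested. At an unadjusted p below 0.05, Krt4, Krt19 and Krt23 passed, 3 of 10, where 24.3% of all genes tested did. Libraries of KPS and KP did not overlap for Krt4 and Krt19, where 21.8% of all genes tested did not overlap.

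**Figure D1:**
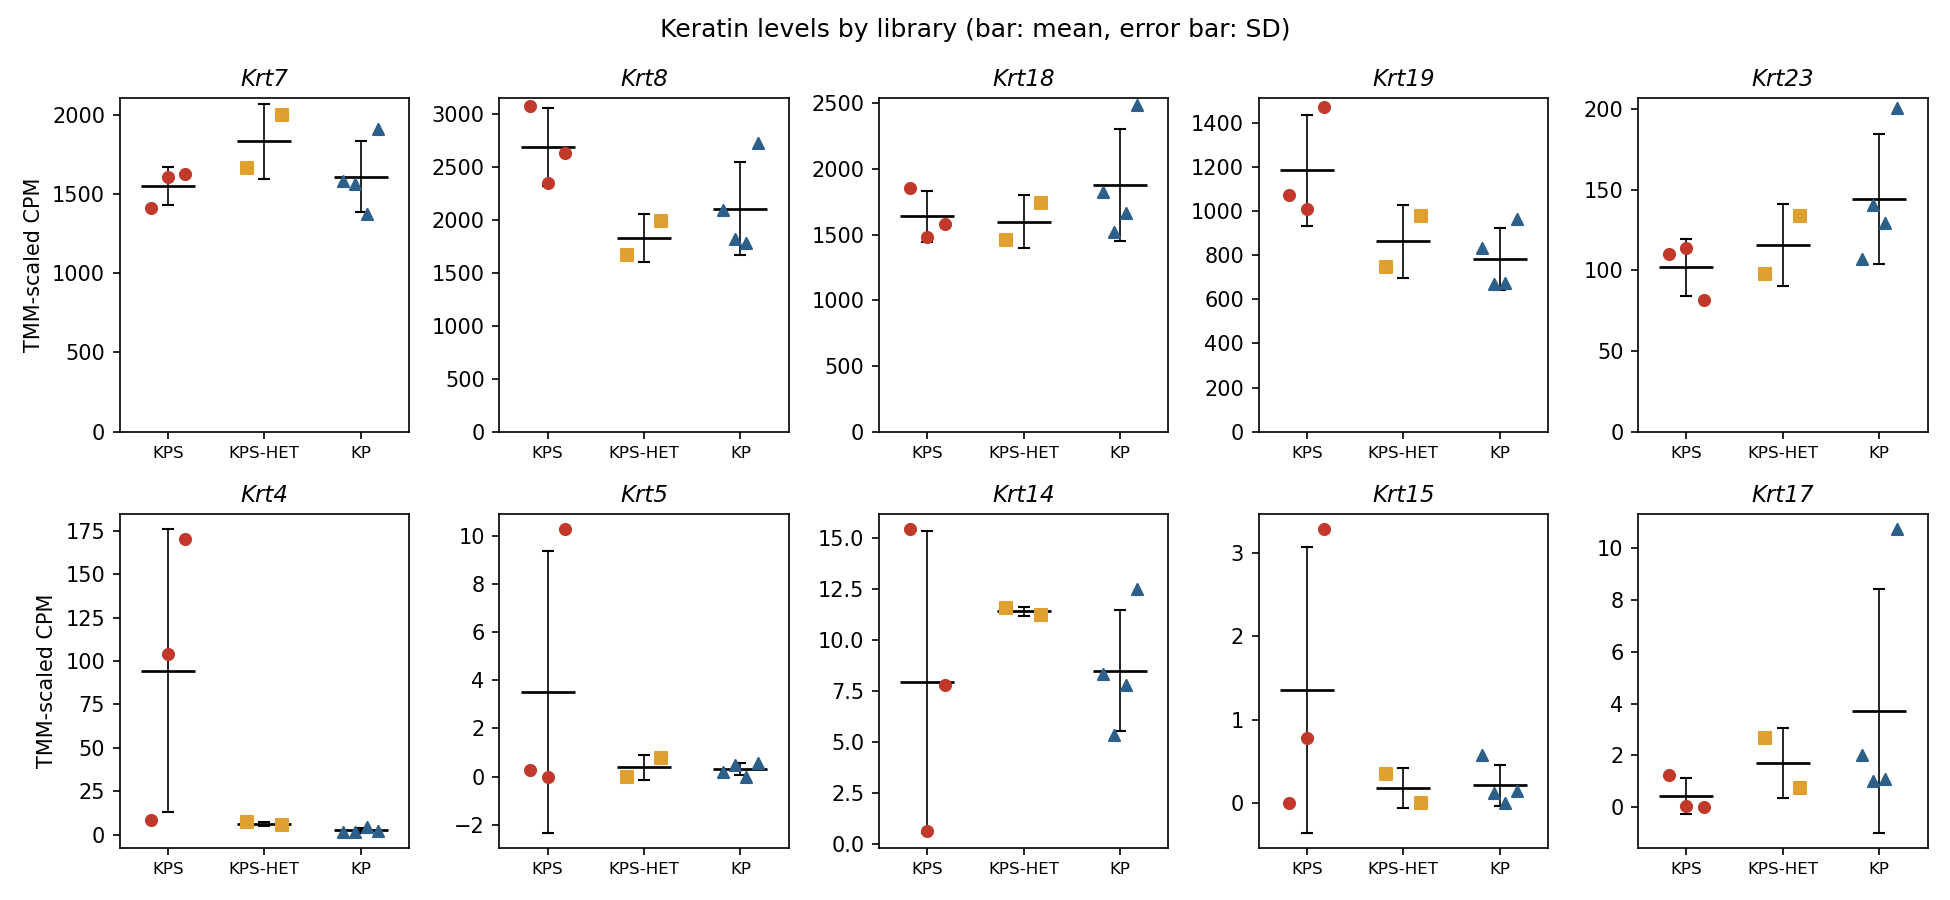
TMM-scaled CPM of the 10 keratins in each library of KPS (red circles, n = 3), KPS-HET (orange squares, n = 2) and KP (blue triangles, n = 4), with a separate linear axis per gene. Horizontal bars are group means and error bars SD, so error bars of the low keratins reach below 0. Krt4 lies at 8.59 to 171 CPM in KPS and at most 4.48 CPM in KP.

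Keratin 8, the type II keratin of simple epithelium, had 3081, 2353 and 2638 CPM in KPS, 1669 and 1991 CPM in KPS-HET and 2098, 1824, 1781 and 2732 CPM in KP. KP replicate 4 reached the KPS range, while both KPS-HET libraries lay below every KPS library. Krt8 in KPS differed from KP by 0.35 ± 0.17 on the log2 scale (adjusted p = 0.248) and from KPS-HET by 0.56 ± 0.21 (adjusted p = 0.229). Neither passed the test.

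Keratin 18, its type I partner, had 1855, 1483 and 1580.3 CPM in KPS, 1457 and 1741 CPM in KPS-HET and 1828, 1522, 1669 and 2486 CPM in KP. All 3 groups overlapped. The log2 fold change of Krt18 was -0.19 ± 0.18 in KPS against KP (adjusted p = 0.563) and 0.04 ± 0.21 in KPS against KPS-HET (adjusted p = 0.957).

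Although neither gene passed the test on its own, the ratio between these partners was higher in each KPS library than in any other library. The ratio of Krt8 to Krt18 counts within a library, which does not depend on scaling between libraries, was 1.66, 1.59 and 1.67 in KPS. It was 1.15 and 1.14 in KPS-HET and 1.15, 1.199, 1.07 and 1.10 in KP. All KPS libraries lay above all others, and the KPS-HET libraries fell inside the KP range. Means were 1.64 ± 0.045 in KPS (SD, n = 3), 1.14 ± 0.0016 in KPS-HET (n = 2) and 1.13 ± 0.058 in KP (n = 4), and the counting error of a single ratio was at most 0.901%. The ratio was chosen after its values were seen and is given with no test. The share of all gene ratios that separate the groups was not computed. Of single genes, 21.8% did not overlap in KPS against KP and 36.4% in KPS against KPS-HET. Of the 50-base stretches of the Krt8 transcript 26.9% also occur in the pseudogene Krt8-ps, which has no row in the table, and 0.720% of those of Krt18 occur in other genes.

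Keratin 19, a short type I keratin of simple and ductal epithelium, had 1072, 1008 and 1469.9 CPM in KPS, 746 and 979 CPM in KPS-HET and 829.7, 668, 671 and 962 CPM in KP. Every KPS library lay above every other library, and KPS-HET overlapped with KP. The log2 fold change in KPS against KP was 0.60 ± 0.19 (adjusted p = 0.083 in edgeR, unadjusted p = 0.00927), short of the threshold, while DESeq2 called it (0.60, adjusted p = 0.0197, where the alternatives ran to 0.284). KPS differed from KPS-HET by 0.46 ± 0.23 (adjusted p = 0.350) and KPS-HET from KP by 0.14 ± 0.21 (adjusted p = 0.981). Relative to Krt18 counts in the same library, Krt19 stood at 0.578, 0.680 and 0.930 in KPS, 0.512 and 0.562 in KPS-HET and 0.454, 0.439, 0.402 and 0.387 in KP. These ratios, also chosen after they were seen and not tested, did not overlap between any 2 of the groups. Single genes did not overlap in 21.8% of cases in KPS against KP, 13.4% in KPS-HET against KP and 36.4% in KPS against KPS-HET.

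Keratin 7, the type II keratin of glandular and alveolar epithelium, stood at similar levels in KPS and KP. Krt7 had 1412, 1610.1 and 1627 CPM in KPS, 1667 and 2003 CPM in KPS-HET and 1582, 1562, 1377 and 1914 CPM in KP. Groups overlapped between KPS and KP, and both KPS-HET libraries lay above the KPS libraries. The log2 fold change was -0.05 ± 0.14 in KPS against KP (adjusted p = 0.865) and -0.24 ± 0.17 in KPS against KPS-HET (adjusted p = 0.499). Relative to Krt18, Krt7 counts ran from 0.761 to 1.09 in KPS, were 1.14 and 1.15 in KPS-HET and ran from 0.770 to 1.03 in KP. The ratio of Krt8 to Krt7 counts was 1.46 to 2.18 in KPS, 1.001 and 0.994 in KPS-HET and 1.17 to 1.43 in KP. These values did not overlap, again with no test and no share over other gene ratios to set beside them.

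Keratin 23, a type I keratin of glandular and digestive epithelium, had 110.4, 114 and 81.7 CPM in KPS, 97.4 and 134 CPM in KPS-HET and 107, 140.3, 129 and 201 CPM in KP. KP replicate 4 was the highest and KPS replicate 3 the lowest, and the groups overlapped. Krt23 differed in KPS from KP by -0.50 ± 0.22 on the log2 scale (adjusted p = 0.199).

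**Figure D2:**
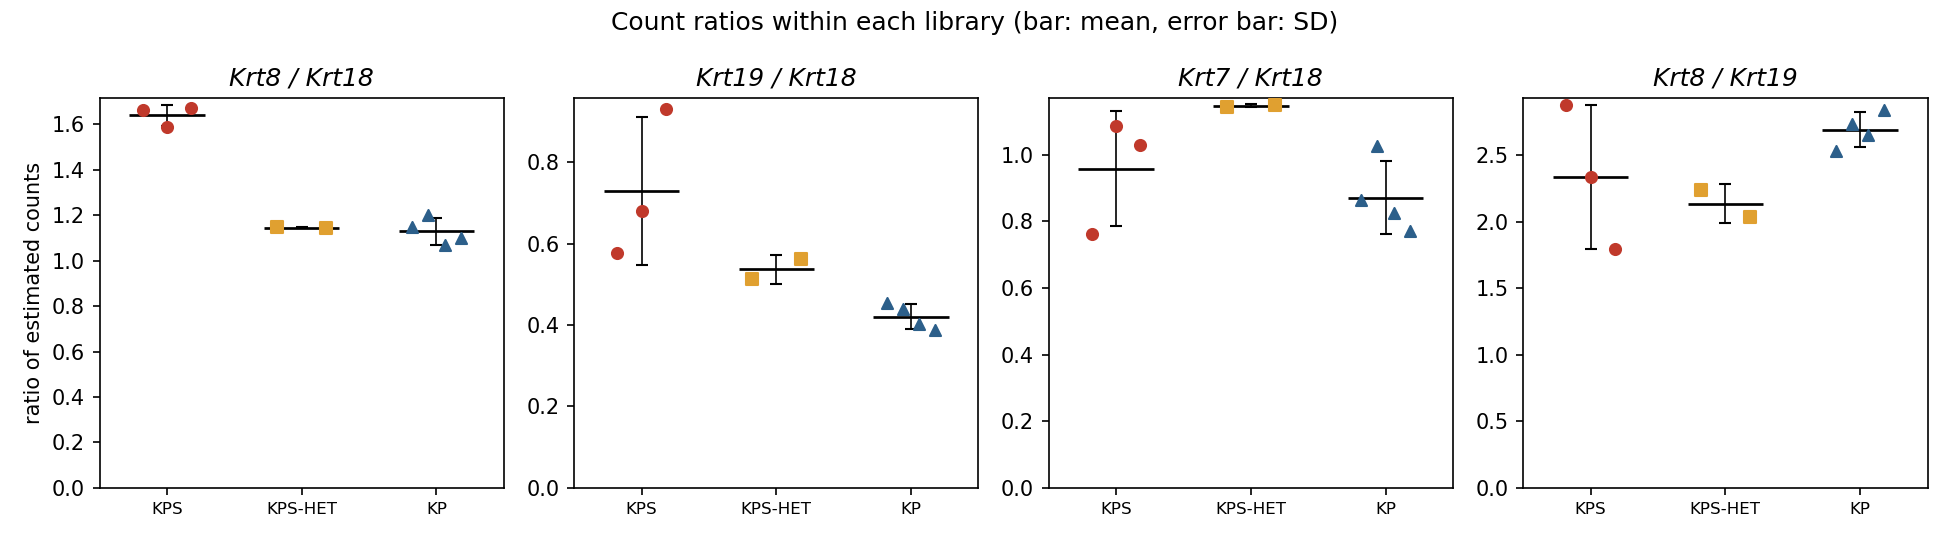
Ratios of estimated counts between 2 keratins of the same library, by group, with means (bars) and SD (error bars); axes start at 0. Krt8 over Krt18 lies at 1.59 to 1.67 in the 3 KPS libraries and at 1.07 to 1.199 in the other 6, while Krt8 over Krt19 overlaps between KPS (1.79 to 2.87) and KP (2.53 to 2.84).

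Krt5 and Krt15 were low in every group, with their highest values in KPS replicate 3. Krt5 had 0.275, 0 and 10.3 CPM in KPS, 0 and 0.754 CPM in KPS-HET and 0.189, 0.482, 0 and 0.560 CPM in KP. KPS replicate 3 held the only value above 1 CPM. The log2 fold change of Krt5 in KPS against KP was 3.46 ± 1.83 (adjusted p = 0.284), and without KPS replicate 3 it turned to -1.08 (adjusted p = 0.822, where the alternatives ran from 0.184 to 0.823). Krt15, which basal cells also carry, was highest in the same library, with 0, 0.777 and 3.29 CPM in KPS, 0.342 and 0 CPM in KPS-HET and 0.567, 0.120, 0 and 0.140 CPM in KP (2.70 ± 1.67, adjusted p = 0.367). Without KPS replicate 3 the log2 fold change of Krt15 was 0.84 (adjusted p = 0.863, where the alternatives ran from 0.230 to 0.863), and with limma-voom it was 0.74.

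Krt14, the usual partner of keratin 5, had another pattern. Its values were 15.4, 0.631 and 7.76 CPM in KPS, 11.6 and 11.2 CPM in KPS-HET and 8.32, 5.36, 7.81 and 12.5 CPM in KP. KPS held both the highest and the lowest library of all, and the log2 fold change in KPS against KP was -0.09 ± 0.73 (adjusted p = 0.958). Without KPS replicate 2 it was 0.43 and without KP replicate 4 it was 0.14, neither called. Krt14 shares 14.4% of its 50-base stretches with other genes, mostly Krt16, and Krt5 shares 8.52%, mostly with Krt6a. Part of their reads may thus have been divided by estimation, which depends on a read length that is not given. KPS replicate 3, the highest for Krt5, was also the highest for Krt6a (63.8 CPM). The part of shared reads in these values was not tested.

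Krt17 had its highest values outside KPS. It had 1.24, 0.0485 and 0 CPM in KPS, 2.65 and 0.754 CPM in KPS-HET and 2.02, 1.02, 1.09 and 10.7 CPM in KP. KPS replicates 2 and 3 were at or below the floor of 3 counts, and KP replicate 4 stood far above the other KP libraries. The log2 fold change in KPS against KP was -3.04 ± 1.45 (adjusted p = 0.230), which missed the threshold, and with 1 library left out it ran from -7.00 (without KPS replicate 1) to -1.63 (without KP replicate 4).

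**Figure D3:**
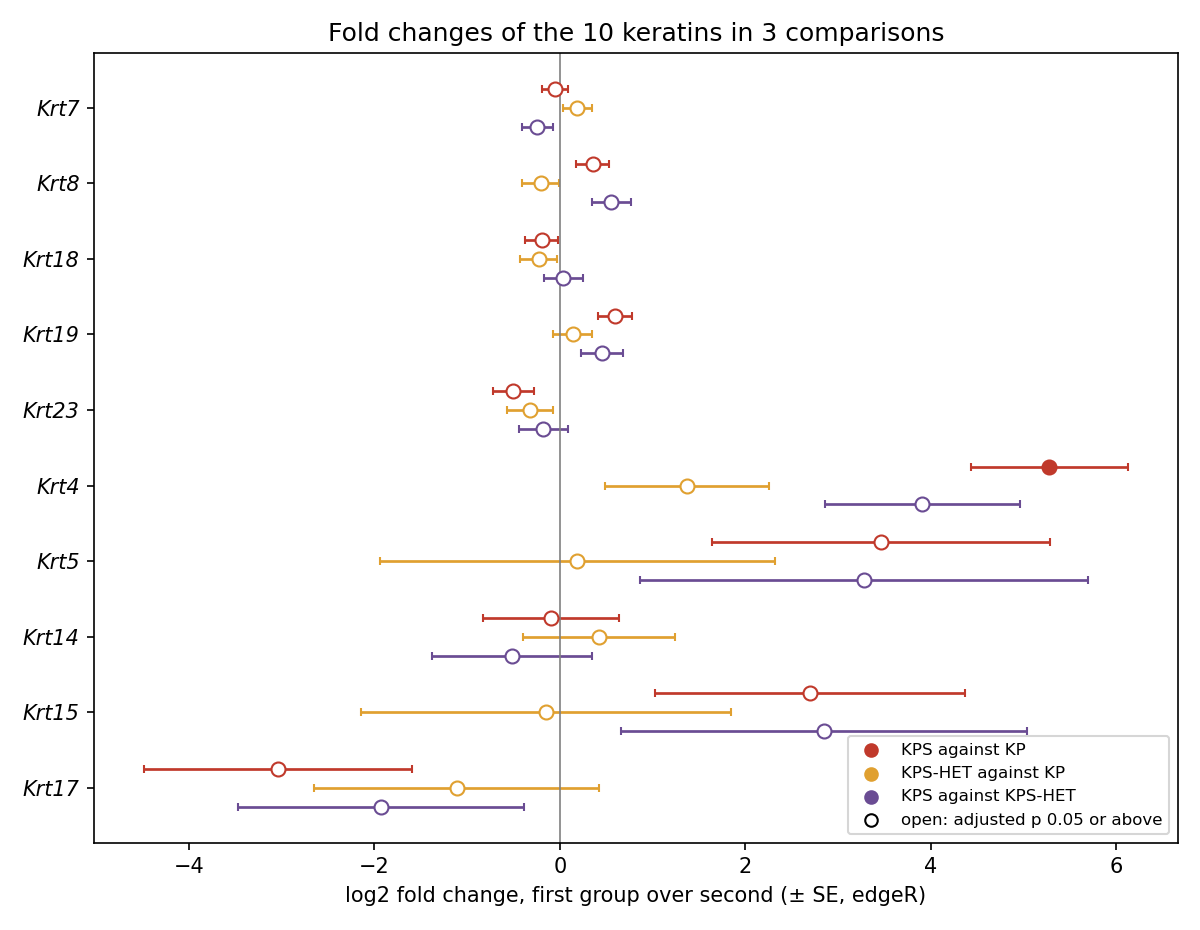
Log2 fold changes with SE from edgeR for the 10 keratins in KPS against KP (red), KPS-HET against KP (orange) and KPS against KPS-HET (purple); filled points passed an adjusted p of 0.05 and open points did not. The only filled point is Krt4 in KPS against KP at 5.28, and the SE of the low keratins Krt5, Krt15 and Krt17 exceed 1.

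In KPS-HET against KP none of the 10 members was called, as none of the 15663 genes was (0% in edgeR, also none with DESeq2 or limma-voom). At an unadjusted p below 0.05 there were 627 genes and none of the members. Krt4 was the only member whose KPS-HET and KP libraries did not overlap, where 13.4% of all genes did not. The members' log2 fold changes had a median of -0.01, the same as all genes. In KPS against KPS-HET none of the members was called in edgeR and 2, Krt4 and Krt8, passed at an unadjusted p below 0.05, as did 16.5% of all genes. Over all genes 0.932% were called there, 0.524% higher and 0.409% lower. DESeq2 called 1 member, Krt4 (adjusted p = 0.00564), and limma-voom none. Libraries did not overlap for Krt4, Krt7, Krt8 and Krt19, where 36.4% of all genes did not, and the median was 0.25 for the members and 0.01 for all genes. Any pair of the 3 comparisons shares a group, so their values are not independent.

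None of the other keratin genes passed the test. Of the 41, 6 had no counts in any library, 18 had counts but failed the filter and 17 were tested, and none was called in KPS against KP in either direction (7 positive and 10 negative fold changes, 2 at an unadjusted p below 0.05, a smaller share than the 24.3% of all genes). Krt6a, a keratin of activated and wounded squamous epithelium, had 2.78, 5.39 and 63.8 CPM in KPS, 25.6 and 5.73 CPM in KPS-HET and 2.02, 1.33, 3.50 and 3.74 CPM in KP. KPS replicate 3 and KPS-HET replicate 1 stood above the rest (KPS against KP 3.17 ± 1.02, adjusted p = 0.0955). Krt1, of the upper epidermis, averaged 1.40 ± 0.75 CPM in KPS and 0.150 ± 0.187 CPM in KP (adjusted p = 0.163). Krt13, the partner of keratin 4, had 0.330, 0.485 and 1.84 CPM in KPS, 0.342 and 0 CPM in KPS-HET and 0, 0, 0.287 and 0 CPM in KP. It was named after its values were seen, and its level was low in every library (3.57 ± 1.63 in KPS against KP, adjusted p = 0.212). In KPS-HET against KP the smallest p belonged to Krt16 (2.34 ± 2.34 CPM in KPS-HET, 0.0473 ± 0.0945 CPM in KP) and Krt6a, and in KPS against KPS-HET to Krt84, with 1.27 ± 1.24 CPM in KPS and no counts in KPS-HET, and Krt1. None was called.

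**Figure D4:**
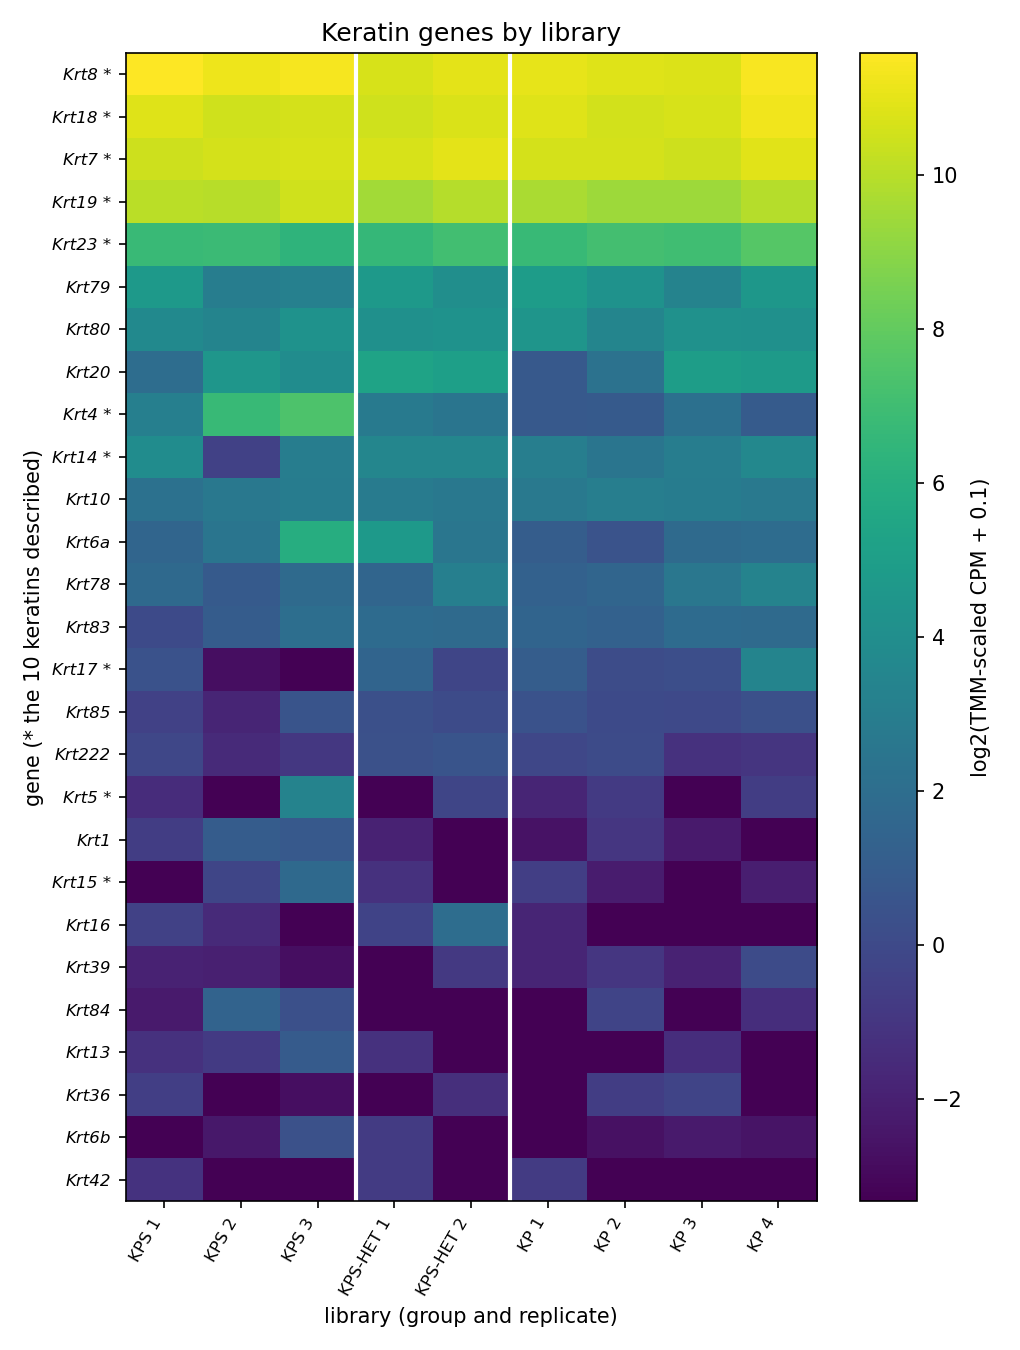
Log2 of TMM-scaled CPM plus 0.1 for the 10 keratins (starred) and other keratins of the table, in columns by library with KPS at the left, KPS-HET in the middle and KP at the right; rows are ordered by mean level. Krt8, Krt18, Krt7 and Krt19 are high in all 9 libraries, and Krt4 is bright in KPS replicates 2 and 3 (104 and 171 CPM).

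Of 8 basal cell markers other than keratins, 5 were highest in KPS replicate 3 (Col17a1, Dlk2, Ngfr, Snai2 and Dapl1) and 3 were not (Trp63, Aqp3 and Itga6). The share of all genes that were highest in that library was not computed. Its summed fibroblast and endothelial markers (67.0 and 112 CPM) were also the highest of all libraries. Ngfr and Dapl1 had 24 and 14 counts there and failed the filter on low counts. Col17a1, a hemidesmosome collagen, had 0.578, 0.0971 and 4.61 CPM in KPS and none in any KPS-HET or KP library. Dlk2 reached 4.56 CPM and Ngfr, a nerve growth factor receptor of basal cells, 1.05 CPM in KPS replicate 3, against at most 1.13 and 0.151 CPM in all others. Snai2 had 4.71, 8.98 and 17.4 CPM in KPS and at most 3.69 CPM in KPS-HET and 3.96 CPM in KP, and Dapl1 reached 0.614 CPM in KPS replicate 3. Trp63, the transcription factor that defines basal cells, was not highest there: it had 0, 1.84 and 7.63 CPM in KPS, 4.41 and 11.5 CPM in KPS-HET and 1.89, 1.39, 21.0 and 0.910 CPM in KP. Trp63 and the other 7 basal markers summed to 212 to 284 CPM in KPS, 192 to 263 CPM in KPS-HET and 201 to 319 CPM in KP, most of it Itga6, and KPS replicate 3, at 231 CPM, lay within the range of all 3 groups. Over all genes tested 3.28% fell and 3.96% rose in KPS against KP. Of the 6 basal markers tested, 1 fell (Aqp3, a water channel) and none rose. Their part in the values of Krt5 and Krt15 was not tested. Mesothelial cells also carry keratins 8, 18 and 19, and their 9 markers summed to 1082 to 2519 CPM in KPS, 193 to 593 CPM in KPS-HET and 108 to 505 CPM in KP. Msln alone gave 1079 to 2510.4 CPM of this in KPS, while Calb2 and Bnc1 were at 0 in all KPS libraries, and Wt1 and Upk3b were at 0 in KPS replicates 1 and 2 and at 0.0877 and 2.06 CPM in KPS replicate 3.

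Proteins that hold or tend keratin filaments were compared next. Over all genes tested, 3.96% were called higher and 3.28% lower in KPS against KP (7.24% in all), the shares to set beside these lists. Of 12 linkers of desmosomes and hemidesmosomes tested, 1 rose and none fell in KPS against KP. It was Eppk1, epiplakin, which binds keratin bundles (0.68 ± 0.16, adjusted p = 0.031), with 73.3 ± 11.4 CPM in KPS and 45.8 ± 6.25 CPM in KP. The median of the linkers was -0.04. Of 10 keratin-binding proteins and chaperones 2 rose and 1 fell (median -0.01). Sfn, 14-3-3 sigma, which binds keratin 17 and keratin 18, rose to 341, 234 and 238 CPM in KPS, against 95.1, 101, 91.9 and 125 CPM in KP, with no overlap (1.39 ± 0.16, adjusted p = 0.00269). It was also higher than in KPS-HET, at 94.6 and 105 CPM (1.44 ± 0.21, adjusted p = 0.0198). Dnajb6, a co-chaperone that binds keratin 18, rose by 0.62 ± 0.15 (adjusted p = 0.036), and Stub1, the ubiquitin ligase CHIP, fell by 0.47 ± 0.12 (adjusted p = 0.043).

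Among 13 tested transcription factors of stratified and simple epithelium, of 15 listed, 1 rose and 1 fell in KPS against KP (median 0.31). Of all genes tested, 3.96% rose and 3.28% fell. Klf4, which drives squamous differentiation, had 43.4 ± 14.9 CPM in KPS and 23.7 ± 3.23 CPM in KP (0.87 ± 0.23, adjusted p = 0.047). Ovol1, a repressor acting in epidermal differentiation, had 8.27 ± 2.54 CPM in KPS and 20.9 ± 3.05 CPM in KP (-1.34 ± 0.30, adjusted p = 0.030). Of 9 non-keratin intermediate filament genes tested, of 13 listed, none was called (3 at an unadjusted p below 0.05, where 24.3% of all genes passed, median 0.47). Vim, vimentin of mesenchymal cells, stood at 70.6 ± 23.5 CPM in KPS and 22.0 ± 6.02 CPM in KP (adjusted p = 0.065), beside the fibroblast and macrophage markers given above. Synm, synemin, stood at 4.39 CPM in KPS and 9.70 CPM in KP (adjusted p = 0.176). Leaving out 1 of the 7 libraries ended the Stub1 call in 7 of 7 fits (adjusted p = 0.0509 to 0.0971), those of Eppk1 (0.0608 to 0.108), Klf4 (0.0768 to 0.180) and Dnajb6 (0.0600 to 0.126) in 6 and that of Ovol1 in 5 (0.0546 to 0.0844), while Sfn against KP kept its call in all 7. The Sfn call against KPS-HET was lost without KPS-HET replicate 1 (adjusted p = 0.184) or replicate 2 (0.107), and with only those groups fitted (0.0702). That of Klf4 was also lost with limma-voom (0.0544) and with only KPS and KP fitted (0.0636), and that of Stub1 with no filter on low counts (0.0548). The fits that kept a call were those without KPS replicate 2 for Eppk1, Klf4 and Ovol1, without KP replicate 2 for Ovol1 and without KP replicate 4 for Dnajb6.

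In KPS-HET against KP none of these 4 lists held a called gene. The smallest p belonged to Evpl (-0.64 ± 0.25) and Eppk1 (0.34 ± 0.18) among the linkers, to Grhl3 (-1.48 ± 0.58) and Ovol1 (-0.67 ± 0.34) among the transcription factors, and to Hspa8 (-0.29 ± 0.16) and Dnajb6 (0.12 ± 0.17) among the binding proteins. Among the other filaments it belonged to Des, at 0 in KPS-HET and 0.364 CPM in KP, and Lmnb1 (-0.42 ± 0.24). In KPS against KPS-HET only Sfn was called, where 0.932% of all genes were. Ppl (0.51 ± 0.22) and Evpl (0.48 ± 0.26), plakins that link filaments to the cell border, Klf4 (1.37 ± 0.29, adjusted p = 0.0587), Grhl3 (2.32 ± 0.62, adjusted p = 0.111) and Lmnb1 (0.89 ± 0.25) were among those with the smallest p of their lists and did not pass, nor did Des, at 0.610 CPM in KPS and 0 in KPS-HET.

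Gene profiles nearest to those of 3 keratins were then read off by the root mean square difference of centred log2(CPM + 1) over the 9 libraries, among 9798 genes with a mean of at least 10 CPM. Nearest to Krt4, whose own spread was 2.11, were Kng1 (0.712), which encodes kininogen, Sult1c2 (0.750), a sulfotransferase, Ripply3 (0.823), Anxa8 (0.855), an annexin, and Sprr2a2 (0.866), a cornified envelope precursor. All 5 were lower in KPS replicate 1 than in KPS replicates 2 and 3, as Krt4 was, which follows from how they were chosen. Krt4 was taken as the most abundant basal or squamous member over all libraries (34.0 CPM). KPS gave it that rank, as Krt14 was higher in KP (8.49 against 2.44 CPM) and KPS-HET (11.4 against 6.24 CPM). Kng1 (5.29 CPM in KP, 5.22 in KPS-HET) and Sult1c2 (0.584 and 0.0754) likewise passed the 10 CPM filter through KPS. Nearest to Krt8, whose spread was 0.291, were Ctns (0.0742), the lysosomal cystine transporter, Ppl (0.0954), periplakin, Map4k3 (0.107), Rab7 (0.110) and Ppp1r13l (0.111). Nearest to Krt19, with a spread of 0.344, were Dnase1l1 (0.0890), Rps6ka3 (0.106), Map3k5 (0.127), Ptpn9 (0.135) and C1d (0.139). KPS replicate 1 and KP replicate 4, where Krt8 was highest, also held the most estimated counts (37114352 and 29231565). The part of library depth in the Krt8 profile was not tested. All these profiles are descriptions of the same 9 libraries, with no test.

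**Figure D5:**
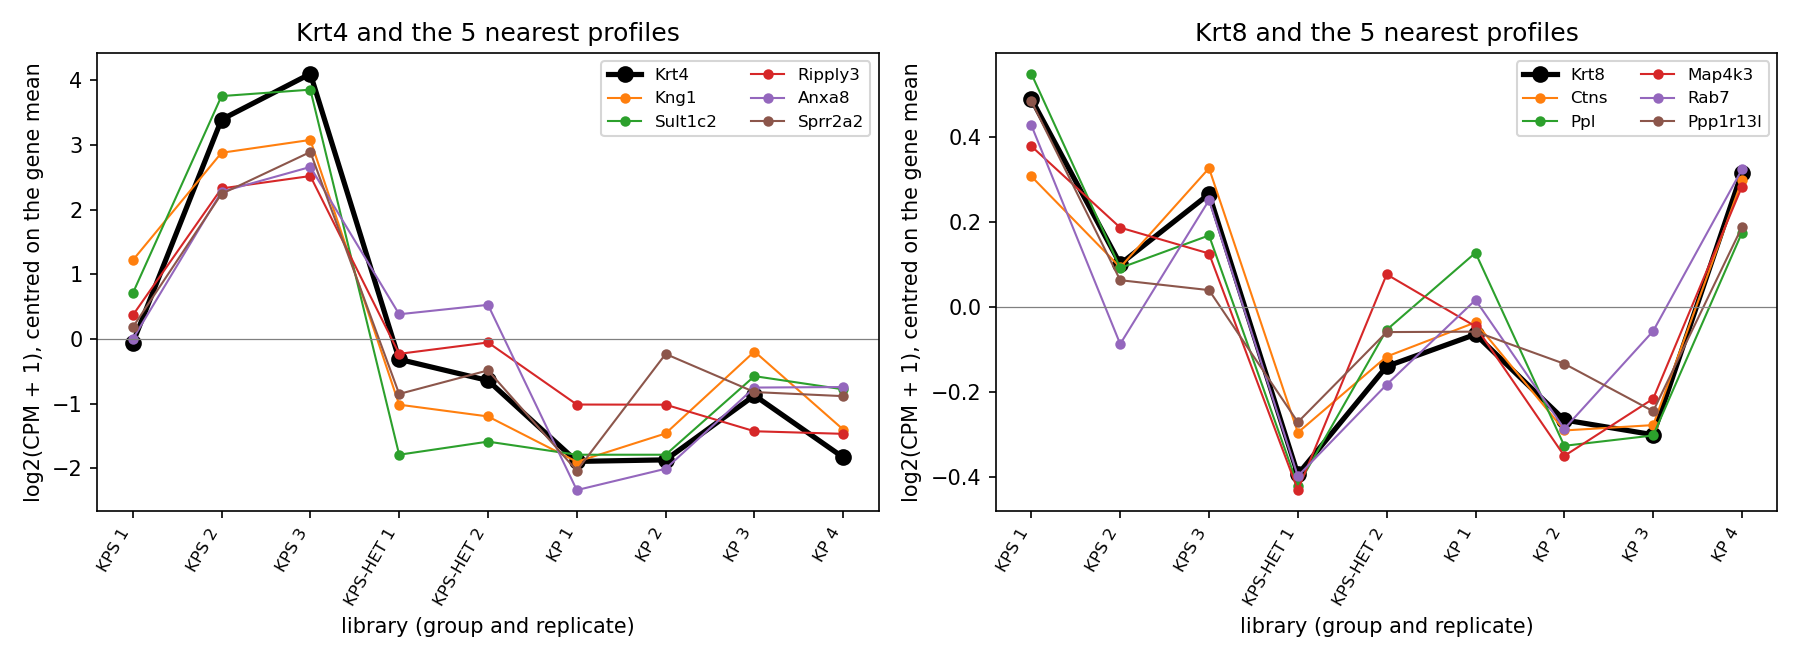
Log2(CPM + 1) centred on each gene's mean, by library from KPS at the left to KP at the right, for Krt4 (left, thick black) and Krt8 (right, thick black) with the 5 genes nearest to each. Krt4 and its nearest genes, which were chosen for their likeness to it, peak in KPS replicates 2 and 3. Krt8 and its nearest genes span less than 1 log2 unit and are high in KPS replicate 1 and KP replicate 4. Those libraries held the most counts.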

How the data were processed

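Bulk polyA RNA of sorted cells was sequenced from 9 libraries after low-input SMART-seq preparation, per the labels' protocols. The authors deposited estimated counts per gene, with fractions and unscaled, made with RSEM 1.3.1, Bowtie 1.2.3 and build mm9, per the submitters' processing notes. The sources used here do not give the annotation, the strand setting or any filter, so near-identical, overlapping or antisense genes are uncertain. Counts were rounded to whole numbers (by at most 0.5). filterByExpr (minimum count 10, minimum total 15) left 15663 of 23224 genes. The test was edgeR 4.0.16 quasi-likelihood (TMM, robust, R 4.3.3) with 1 coefficient per genotype over all 9 libraries, two-sided, Benjamini-Hochberg adjusted over all genes tested, with a threshold of 0.05. The common biological coefficient of variation was 0.430. Alternatives were DESeq2 1.42.0, limma-voom (limma 3.58.1), other scaling, filters and estimates, only the groups compared, and leaving out each library. The fits were tested on simulated data. Replicates were numbered in sample order. A further part of the genotype label, the same in all groups, is not reported here.

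All members, the targeted gene and each list's called genes (up to 4, or the 2 with the smallest p) were named by rule. So were the 5 nearest profiles for Krt8, Krt19 and the most abundant of the basal and squamous members over all libraries. That member was Krt4, which its KPS values raised above Krt14. The members and lists were chosen with earlier results of these data known. Transcript lengths and 50-base stretches come from GENCODE M21 principal transcripts, on another build; the sources used here do not give the read length.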

Additional observations from a re-analysis of the deposited data

Results flagged for a closer look

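In 2 keratins 1 KP library lay far above the other 3. Krt4 stood at 4.48 CPM in KP replicate 3, against 1.82 CPM in the next library. Its share of the members' counts was also highest there, at 0.0792%, against 0.0305% in the next library. Krt17 stood at 10.7 CPM in KP replicate 4, against 2.02 CPM in the next. For normally spread values, chance flags about 1 in 20 groups of this size. The 10 genes were looked at, and also ratios and shares of their counts. The flag on the Krt4 share rests on the same Krt4 counts as the flag on its level. KP replicate 3 also held the highest Trp63 (21.0 CPM) of all libraries.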

How the results depend on the processing

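No paired analysis was possible because the labels give no replicate numbers that pair the groups. The Krt4 fold change in KPS against KP kept its direction in all 14 alternatives (4.44 to 5.79) and lost its call in 1, limma-voom, where 0 members were called, while DESeq2 called 2 (Krt4 and Krt19). In KPS against KPS-HET 1 member was called with DESeq2 and 0 to 1 with 1 library left out (1 without KPS replicate 1). Over all genes, KPS against KP gave 1134 calls, 2269 with DESeq2 and 505 to 886 with 1 library left out. Omitting KPS replicate 2 gave 694, omitting KPS replicate 3 gave 505, and omitting KP replicate 1, 2 or 4 gave 512, 738 or 673. KPS against KPS-HET gave 146 calls, 976 with DESeq2, 15 with only those groups and 1 to 138 with 1 library left out. It gave 42 without KPS replicate 2, 61 without KPS replicate 3, 1 without KPS-HET replicate 1 and 15 without KPS-HET replicate 2. KPS-HET against KP gave 0 in all 13 alternatives. Where KPS-HET was left with 1 library, that library was assumed to vary like the other groups. DESeq2 gave no adjusted p for Krt5 in any comparison or for Krt15 in KPS-HET against KP, so these were judged by direction alone. Of 478 single-gene values recomputed, 422 kept direction and side of the threshold, 37 lost and 3 gained a call, and 16 uncalled ones turned sign.

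Their ranges with 1 library left out follow, with that library in brackets where the sign turned or a group fell to 0. In KPS against KP, Krt5 ran from -1.08 (KPS replicate 3) to 4.02, Krt14 from -1.04 to 0.43 (KPS replicate 2; 0.14 without KP replicate 4) and Krt7 from -0.15 to 0.015 (KP replicate 4). In KPS-HET against KP, Krt5 was -1.16 with limma-voom and ran from -5.86 (KPS-HET replicate 2, which leaves KPS-HET at 0 counts, so the value depends on the prior count) to 1.27, and was -0.21 without KP replicate 3. Krt15 ran from -5.18 (KPS-HET replicate 1, likewise at 0 counts) to 0.997 (KP replicate 1; 0.73 without KPS-HET replicate 2), Krt19 from -0.071 (KPS-HET replicate 2) to 0.34 and Krt17 from -2.28 to 0.33 (KP replicate 4). In KPS against KPS-HET, Krt18 ran from -0.13 (KPS-HET replicate 1; -0.10 without KPS replicate 1) to 0.17, Krt14 from -1.47 to 0.0067 (KPS replicate 2), Krt5 from -1.31 (KPS replicate 3) to 9.32 (KPS-HET replicate 2, at 0 counts) and Krt23 from -0.43 to 0.066 (KPS-HET replicate 2). The cause was not tested. Levels under the floor of 3 counts, as for some Krt5, Krt15 and Krt17 libraries, rest on counting error.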
